A study of Mus musculus with 4 samples.

Results

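Genes of DNA replication and mitosis were followed in lower eyelids from wild-type mice of the inbred strain C57BL/6, at 3 months and 2 years of age. A set of 42 genes was chosen by symbol from textbook roles in the cell cycle, and all 42 were listed in all 4 libraries, among 15816 genes listed in at least 1. The 4 libraries were 1 per sex and age, with 3 months called young and 2 years called old. No genotype, transgene or treatment separated the groups, and how many animals a library holds is not stated. With 1 library per group no difference has a replicate check, no test was run, and each value below describes 1 library. The old female library stood apart: over all 12094 analysed genes Pearson's r of its log2 levels was 0.940 against young females and 0.966 against each male library, where the other pairs had 0.984 to 0.988. Results in males do not use it.

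Dividing cells first license replication origins in G1 by loading the helicase Mcm2 to Mcm7, with the help of Cdc6 and Cdt1, and then copy their DNA in S phase. Cyclins of the A and B type with the kinase Cdk1 then drive entry into mitosis, and the ubiquitin ligase APC/C ends it. Genes of the first step are classic targets of E2F factors, while many mitotic genes are known to be controlled through CCAAT boxes and a short element called CHR (cell cycle genes homology region). In the eyelid, dividing cells are known to sit in the basal epidermis, the hair matrix, the conjunctiva and the outer layer of the meibomian glands, whose lipid-filled cells are shed whole and replaced from that layer. Because a lid library mixes all these tissues, fewer dividing cells and less RNA per dividing cell cannot be told apart in it. The 42 genes are described as 17 replication genes (origin licensing and helicase, replication fork and nucleotide supply, and G1/S regulators) and 25 mitosis genes (cyclins with Cdk1, kinases and checkpoint, APC/C, chromosomes and centromeres, and spindle and cytokinesis).

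Replication and mitosis genes differed in these known promoter elements, and 4 promoters are shown as examples of the E2F, CCAAT and CHR patterns. The sequences are those of RefSeq on the build GRCm38.p6, the 250 bases before the annotated start on the minus strand, written 5′ to 3′. They lie at chr1:128359706-128359955 for Mcm6, chr7:135716380-135716629 for Mki67, chr9:70421555-70421804 for Ccnb2 and chr10:69352913-69353162 for Cdk1. Capitals mark matches on either strand to an E2F motif (TTTCCCGC, TTTGGCGC, TTTCGCGC or TTTGCCGC), to CCAAT or to the CHR (TTTGAA).
Mcm6: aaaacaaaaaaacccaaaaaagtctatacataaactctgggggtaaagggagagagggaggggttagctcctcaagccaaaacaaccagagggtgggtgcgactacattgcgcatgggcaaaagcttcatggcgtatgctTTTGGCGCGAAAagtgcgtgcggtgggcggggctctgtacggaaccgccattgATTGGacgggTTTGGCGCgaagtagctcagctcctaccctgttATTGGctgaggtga
Mki67: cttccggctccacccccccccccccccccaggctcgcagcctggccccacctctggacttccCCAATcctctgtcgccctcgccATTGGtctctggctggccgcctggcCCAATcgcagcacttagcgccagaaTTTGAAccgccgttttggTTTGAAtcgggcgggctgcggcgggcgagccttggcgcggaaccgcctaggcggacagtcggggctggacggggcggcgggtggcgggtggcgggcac
Ccnb2: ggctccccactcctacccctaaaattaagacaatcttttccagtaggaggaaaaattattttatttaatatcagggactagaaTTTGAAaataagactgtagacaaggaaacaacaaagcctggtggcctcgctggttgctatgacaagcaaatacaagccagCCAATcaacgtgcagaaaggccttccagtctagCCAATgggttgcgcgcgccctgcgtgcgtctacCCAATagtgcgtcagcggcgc
Cdk1: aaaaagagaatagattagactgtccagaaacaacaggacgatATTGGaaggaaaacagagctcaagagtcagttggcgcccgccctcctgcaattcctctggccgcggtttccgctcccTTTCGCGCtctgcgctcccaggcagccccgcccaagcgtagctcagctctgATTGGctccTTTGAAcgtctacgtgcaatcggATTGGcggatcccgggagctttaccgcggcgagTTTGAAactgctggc

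Mcm6 held 3 matches to the E2F motif, 2 of which overlap each other on opposite strands, together with 2 CCAAT matches and no CHR. Mki67 and Ccnb2 each held 3 CCAAT matches and at least 1 CHR, and neither held the E2F motif. Cdk1 held all of them. Of the 42 genes, 33 were in the promoter table, and motifs were counted from 250 bases before to 50 after the start. The CHR was in 14 of 19 mitosis genes (73.7%) and in 1 of 14 replication genes, Mcm2, against 20.2% of 27025 genes with a promoter in the table. The E2F motif was in 7 of 14 replication genes (Cdc6, Cdt1, Mcm3, Mcm5, Mcm6, Mcm7 and Uhrf1) and in 1 of 19 mitosis genes, Cdk1, against 2.605% of all. Without its first letter the E2F motif was in 9 and 3 of them, against 10.9% of all. CCAAT was in 9 of 14 and 17 of 19, against 41.1% of all. Among the 9163 analysed genes with a promoter in the table the shares were 14.1% for the CHR, 4.49% for the E2F motif, 19.0% for its shorter form and 42.4% for CCAAT. A match is a run of letters and says nothing about binding in these tissues, and the genes without an entry, such as Ccna2, Aurkb and Mcm4, were not searched.

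**Figure D1:**
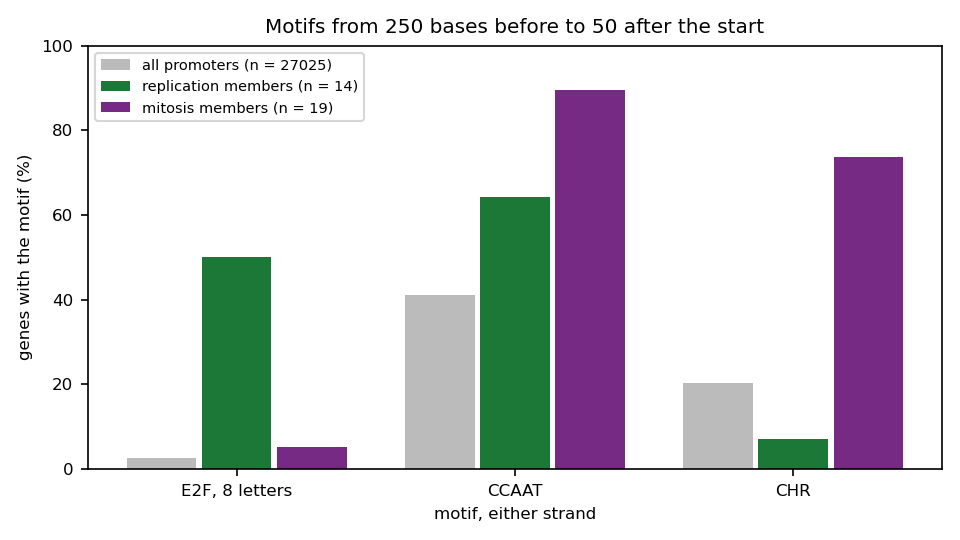
Bars give the percentage of genes with a motif on either strand, for all genes in the promoter table (grey), the replication genes (green) and the mitosis genes (purple). The E2F motif was in 50% of replication and 5.26% of mitosis genes, and the CHR in 7.14% and 73.7%.

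All 42 genes were expressed at low to moderate levels, and their order was nearly the same in every library. RPKM, a read count scaled to gene length and library size, allows levels to be compared between genes. The median over the 42 genes was 6.79 RPKM in young males, 6.50 in young females, 6.93 in old males and 7.07 in old females. Their summed RPKM was 366.9, 334.2, 366.3 and 376.5 in the same order, or 0.0759% to 0.0928% of all RPKM in a library, with the young female library lowest and the old female highest. Pcna, the sliding clamp of the replication fork, was the highest of the 42 in every library, with 41.2, 36.8, 41.1 and 41.8 RPKM. Cdc6, a loader of the helicase, was the lowest, with 0.881, 0.766, 0.767 and 0.763 RPKM. It was the 1 gene of the set below a mean of 1 RPKM, so that 41 entered the comparisons with the 12094 genes above that mean. Across the 42 genes the log2 levels of any 2 libraries had a Pearson's r of 0.970 to 0.992. This describes the libraries, since the genes share them and a gene's level is much the same in each.

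**Figure D2:**
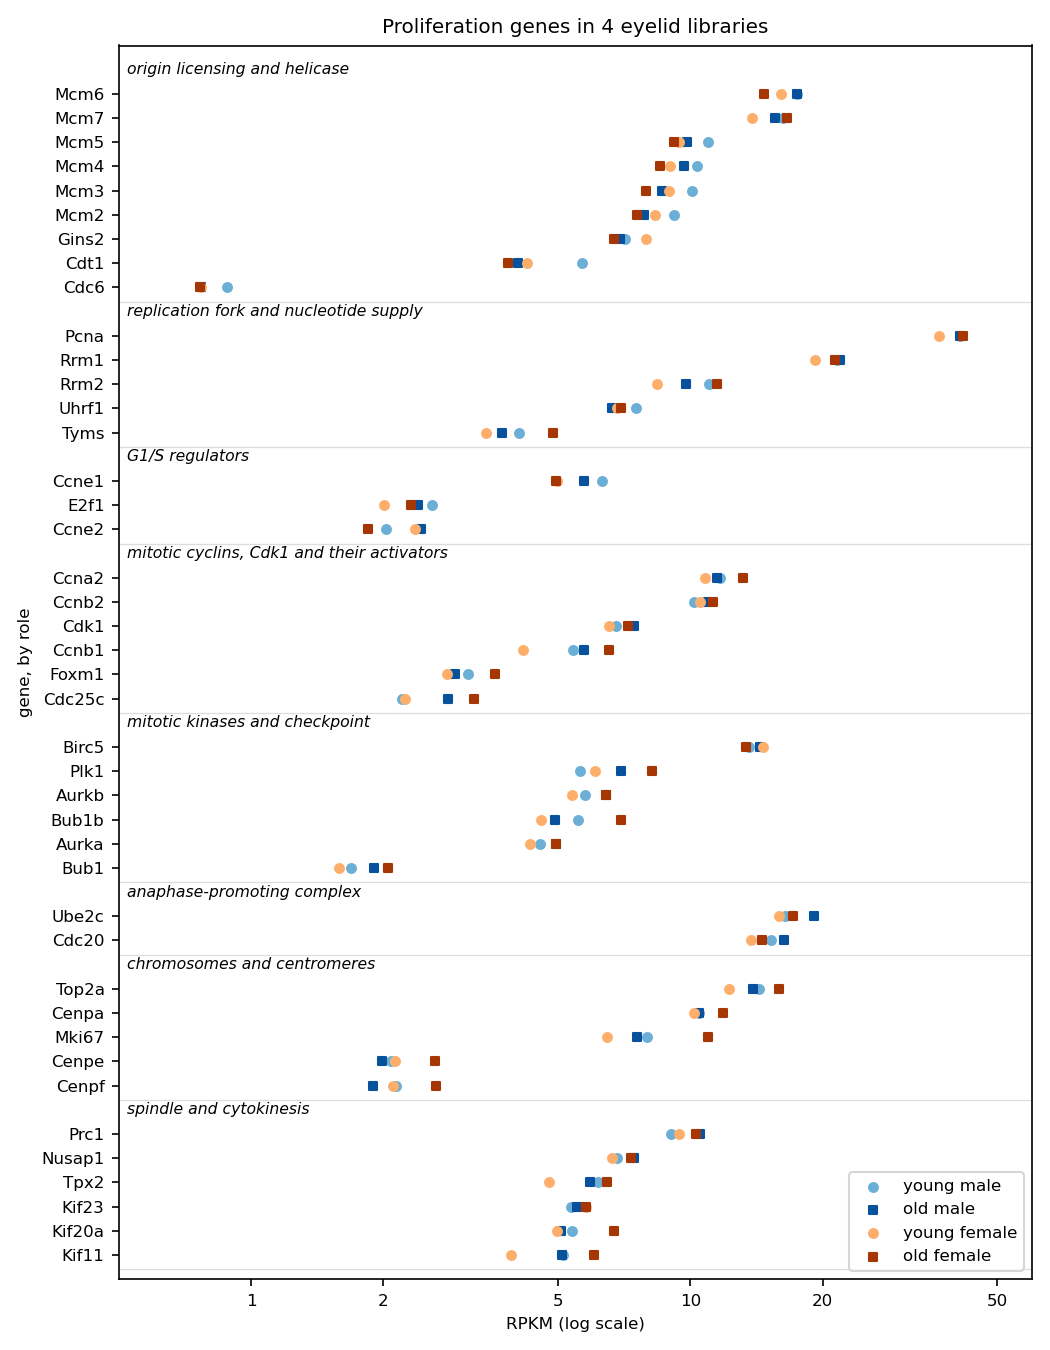
Each row is a gene, grouped by role, and each point its RPKM in 1 library on a log scale: circles are young, squares old, blue male and orange to brown female. The 4 points of a gene lie close together, from Pcna at 36.8 to 41.8 RPKM down to Cdc6 at 0.763 to 0.881, and for most mitosis genes the old female square is the rightmost point.

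Genes of one complex were not at one level. Among the 6 subunits of the Mcm2 to Mcm7 helicase, which join in equal numbers, Mcm6 and Mcm7 stood above the others in every library. Mcm6 had 17.5, 16.1, 17.5 and 14.7 RPKM (young male, young female, old male, old female), and Mcm2 had 9.18, 8.29, 7.85 and 7.56. The ratio of Mcm6 to Mcm2 was 1.91, 1.94, 2.23 and 1.95, so the gap between these subunits was present at both ages. Rrm1, the large subunit of ribonucleotide reductase, was likewise above Rrm2, the small one, by 1.86 to 2.29 times. Cyclin B2 (Ccnb2) exceeded cyclin B1 (Ccnb1) by 1.72 to 2.53 times, and cyclin E1 (Ccne1) exceeded cyclin E2 (Ccne2) by 2.10 to 3.10 times. The Aurora kinases Aurka and Aurkb were closer, with a ratio of Aurkb to Aurka of 1.25 to 1.30. Pcna, Ccnb1, Ccnb2 and Tyms have annotated pseudogenes, and the labels do not say how reads shared with these were assigned.

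No gene of the set differed 2-fold with age in either sex. Of 41 genes, 0 were at least 2-fold higher or lower in old females, where 5.33% of all 12094 genes were higher and 3.37% lower. In males 0 were 2-fold apart either way, where 0.827% of all genes were higher and 0.215% lower. The background shares are themselves small, so 0 of 41 is not read as a property of these genes. None of the 42 was in the authors' deposited table of genes at least 2-fold apart, for either sex. The log2 ratios of old to young, computed on RPKM plus 1, ran from -0.24 (Ccne2) to 0.68 (Mki67) in females and from -0.40 (Cdt1) to 0.27 (Plk1) in males. Their medians were 0.16 and -0.02, where those over all genes were 0.07 and -0.01. The SD over the genes was 0.22 and 0.14, against 0.61 and 0.27 over all genes.

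At a smaller fold, 1.25, chosen after seeing that none was 2-fold apart, 11 of 41 genes were higher and 0 lower in old females. The background was 25.7% of all genes higher and 16.7% lower, so the 26.8% higher is near the share of all genes. In males 0 were higher and 1, Cdt1, was lower, with 7.28% and 7.88% of all genes. The 11 were Mki67, Top2a, Rrm2, Tyms, Ccnb1, Cdc25c, Plk1, Bub1b, Kif11, Kif20a and Tpx2, of which 9 belong to mitosis. This count is not stable: it was 6 when the median ratio of all genes was set to 0, 5 after quantile normalization and 2 with a pseudocount of 5.

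The origin licensing genes were mostly lower in the old libraries of both sexes. Of 8 analysed, 7 were lower in females and 7 in males, with medians of -0.12 and -0.12, where 40.9% and 53.0% of all genes were lower. Mcm2 lay at 9.18 and 8.29 RPKM at 3 months (male, female) and at 7.85 and 7.56 at 2 years, and Mcm3 at 10.1 and 8.92 against 8.62 and 7.92. Cdt1, which brings the helicase to origins, had 5.67 and 4.24 RPKM at 3 months and 4.05 and 3.83 at 2 years. Gins2, a subunit of the GINS complex that activates the helicase, had 7.11 and 7.93 against 6.90 and 6.71. For these 4 genes both old libraries were below both young ones, as for 13.1% of all genes, and the smallest of the within-sex differences was that of Gins2 in males, -2.90%. The exceptions were Mcm7 in females, with 13.8 RPKM young and 16.6 old (log2 0.25), and Mcm6 in males, with 17.5 in both. Mcm4 and Mcm5 were lower with age within each sex, by log2 differences of -0.04 to -0.14. A stretch of 58 exonic bases of Mcm7 overlaps Cops6 on the other strand, which had 86.9 to 99.2 RPKM, and without a stated strand setting reads there cannot be told apart. Cdc6 had log2 ratios of -0.00 in females and -0.09 in males. Other genes of licensing and origin firing outside the set, named after their values were seen, were mixed. Some were higher with age in both sexes (females, then males): Gins1 by 0.12 and 0.02, Gins3 by 0.13 and 0.16, Orc2 by 0.00 and 0.11, and Dbf4 by 0.44 and 0.13. Others were of opposite sign: Orc6 with -0.04 and 0.22, Mcm10 with 0.09 and -0.04, Cdc45 with 0.51 and -0.08, and Cdc7 with 0.17 and -0.07. Orc1 and Ticrr, too low to be analysed, were also of opposite sign.

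Of the genes of the replication fork and of nucleotide supply, all 5 were higher in old than in young females, with a median log2 ratio of 0.18. In old males 4 of 5 were lower, with a median of -0.10. Of all genes 59.1% were higher in old females and 53.0% lower in old males. Ratios near 0 turned under median scaling, Uhrf1 to -0.05 in females and Pcna to 0.01 in males, which left 2 of 5 opposite in the sexes in place of 4, where 61.5% of all genes were opposite as deposited. Tyms, thymidylate synthase, had 3.42 RPKM in young females and 4.88 at 2 years, against 4.07 and 3.73 in males. In females Rrm2 had 8.40 RPKM young and 11.5 old, and in males 11.0 young and 9.80 old. The young female library was the lowest of the 4 for both genes. Pcna differed by 0.18 in females and -0.00 in males, and Rrm1 by 0.14 and 0.02. Uhrf1, which keeps DNA methylation in step with replication, differed by 0.03 and -0.16. Of the G1/S regulators, Ccne1 had 6.29 RPKM in young males, 4.96 in young females, 5.73 in old males and 4.93 in old females. Ccne2 had 2.03, 2.36, 2.44 and 1.84 RPKM, so its age ratio was above 0 in males (0.18) and below 0 in females (-0.24). As many as 609 of its exonic bases overlap Ints8 on the other strand. E2f1, the founding activator of the E2F family, had ratios of 0.14 and -0.08.

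Mitosis genes were mostly a little higher in the old libraries. Of 25, 24 were higher in old females than in young females and 15 were higher in old males than in young males, with median log2 ratios of 0.23 and 0.07. Of all genes 59.1% and 47.0% were higher, so the male count, 60%, stands nearer to the share of all genes than the female one, 96%. Median scaling and quantile normalization gave 23 and 16 of 25. A total of 14 were higher in both sexes and 0 lower in both, where 22.3% of all genes were higher in both and 16.2% lower in both. The shares among mitosis genes were 56.0% and 0%, and among the 16 replication genes 6.25% (1 gene, Rrm1) and 43.8% (7 genes). Of these 7, 6 were licensing genes. Replication genes outside the set went the other way: of 32, 13 (40.6%) were higher in both sexes and 0 lower in both. The 43.8% thus describes the genes chosen here and not replication genes in general. Of 46 mitosis genes outside the set, 22 (47.8%) were higher in both and 1 lower in both. Both old libraries lay above both young ones for 12 of 25 mitosis genes and 0 of 16 replication genes, with 18.6% of all genes. Both lay below for 0 of 25 and 4 of 16, with 13.1% of all genes. The 12 were Ccnb1, Ccnb2, Cdk1, Cdc25c, Plk1, Aurka, Aurkb, Bub1, Cenpa, Nusap1, Prc1 and Ube2c, of which Cenpa rests on a difference of 0.0697% between the male libraries. Median scaling and quantile normalization each gave 13 and 5 in place of 12 and 4. The mitosis genes share their libraries, so these counts are not counts of separate results.

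**Figure D3:**
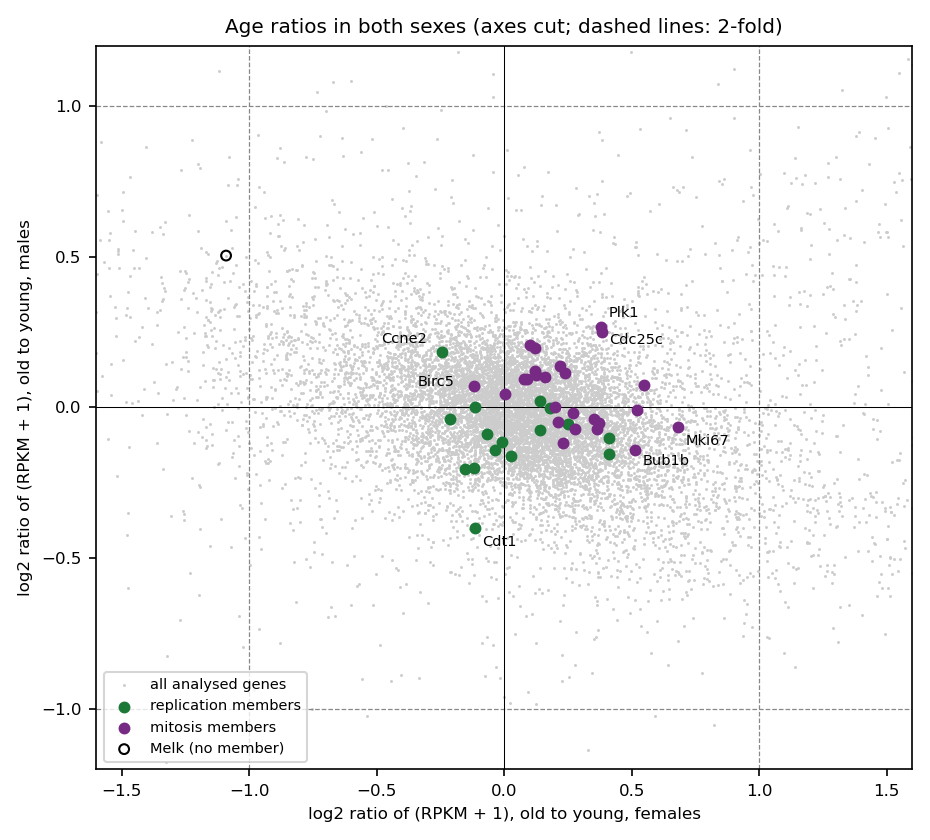
Each point is a gene, with its log2 ratio of old to young RPKM plus 1 in females on the x axis and in males on the y axis: grey for those of the 12094 analysed genes inside the plotted range, green for the replication and purple for the mitosis genes. All coloured points lie inside the dashed 2-fold lines, the purple ones between -0.12 and 0.68 in females and the green ones between -0.24 and 0.41. Melk, a kinase gene outside the set, is the open circle at -1.09 and 0.50.

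Among the cyclins and the regulators of Cdk1, Cdc25c, the phosphatase that activates Cdk1, had 2.20 and 2.24 RPKM at 3 months (male, female) and 2.81 and 3.22 at 2 years. Ccnb1 had 5.40 and 4.16 against 5.73 and 6.54 RPKM, with log2 ratios of 0.07 in males and 0.55 in females. The young libraries differed from each other by more than the males did with age. Cdk1 had 6.77 and 6.54 against 7.44 and 7.20 RPKM and differed by 0.12 in both sexes. Ccnb2 had 10.2 and 10.5 against 11.0 and 11.2. Ccna2, the cyclin of S phase and early mitosis, had 11.7 and 10.8 against 11.5 and 13.2 RPKM, so the old male library was between the young ones. As many as 510 exonic bases of Ccna2 overlap Exosc9 on the other strand. Foxm1, the transcription factor of late cell cycle genes, had ratios of 0.28 in females and -0.07 in males.

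Plk1, the polo-like kinase of mitotic entry, had the highest age ratio of the set in males on the log2(RPKM + 1) scale, while Cdc25c was higher as a plain RPKM ratio (1.28 against 1.24). Plk1 had 5.61 and 6.05 RPKM at 3 months (male, female) and 6.96 and 8.16 at 2 years. Its ratios were 0.27 in males and 0.38 in females. Exonic bases overlap predicted genes on the other strand, 156 with Gm44985 for Plk1 and 623 with Gm3550 for Cdc25c, and 9 of the 42 genes have such an overlap. Aurka had 4.53 and 4.31 against 4.94 and 4.93 RPKM, and Aurkb 5.76 and 5.37 against 6.42 and 6.41. The 2 old libraries nearly coincided for both Aurora kinases. Of the spindle checkpoint kinases, Bub1 had 1.69 and 1.58 against 1.91 and 2.05 RPKM. Bub1b was split, with 4.56 and 6.94 RPKM in young and old females and 5.54 and 4.93 in males. Birc5, the survivin subunit of the chromosomal passenger complex, was the mitosis gene with a lower value in old females (14.7 RPKM young, 13.4 old), and had 13.6 and 14.4 in males. Ube2c, the ubiquitin-conjugating enzyme of the APC/C, had 16.4 and 15.9 RPKM at 3 months and 19.1 and 17.1 at 2 years. Cdc20, an activator of the APC/C, differed by 0.09 in males and 0.08 in females.

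The 5 chromosome genes were all higher in old females, with a median log2 ratio of 0.23. In old males 4 of 5 were lower, with a median of -0.05 and the lowest, Cenpf, at -0.12. Of all genes 59.1% were higher in old females and 53.0% lower in old males. Mki67, which coats mitotic chromosomes and is the usual histological marker of dividing cells, had 7.98 RPKM in young males, 6.46 in young females, 7.57 in old males and 10.97 in old females. The old female library was the highest of the 4 and the young female the lowest, 1.70-fold apart, and the males lay between them. Its log2 ratio was 0.68 in females, the largest of the set, and -0.07 in males. Top2a, the topoisomerase that untangles sister chromatids, had 14.3, 12.2, 13.9 and 15.9 RPKM in the same order of libraries. Cenpe and Cenpf, large proteins of the kinetochore, had 2.08 and 2.14 RPKM in young males, 2.12 and 2.10 in young females, 1.98 and 1.89 in old males and 2.62 and 2.64 in old females. For both the old male library was the lowest and the old female the highest. Cenpa, the centromeric histone, had 10.2 to 10.5 RPKM in 3 libraries and 11.8 in old females. Among the spindle genes, Prc1, which bundles microtubules at the midzone, had 9.04 and 9.42 RPKM at 3 months (male, female) and 10.5 and 10.3 at 2 years. A stretch of 910 exonic bases of Prc1 overlaps Rccd1 on the other strand, which had 0.954 to 1.06 RPKM. Kif11, the motor that pushes spindle poles apart, had 3.90 and 6.03 RPKM in young and old females and 5.14 and 5.09 in males. Kif20a and Tpx2, which act at the cleavage site and in spindle assembly, differed by 0.37 and 0.37 in females and by -0.07 and -0.05 in males. Kif23 differed by 0.00 and 0.04, and Nusap1 by 0.12 and 0.11.

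The level of the mitosis genes relative to the replication genes within a library was compared, since a single scaling factor per library leaves this ratio as it is. The geometric mean of the 25 mitosis genes was 6.09 RPKM in young males, 5.69 in young females, 6.34 in old males and 7.05 in old females. That of the 17 replication genes was 7.65, 6.72, 7.07 and 6.86. The ratio was 0.797 and 0.847 at 3 months and 0.896 and 1.03 at 2 years. It was higher in the old library by 1.13 times in males and 1.21 times in females. Against the 9 licensing genes alone the ratio was 0.782 and 0.824 in the young and 0.912 and 1.08 at 2 years. In both forms the 2 old libraries were above the 2 young ones. The same ratio over genes outside the set, 49 other mitosis genes and 35 other replication genes, differed much less. It was 0.940 and 0.985 at 3 months (male, female) and 0.960 and 1.03 at 2 years, so the old male library lay between the young ones. The age ratio there was 1.02 in males and 1.04 in females.

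**Figure D4:**
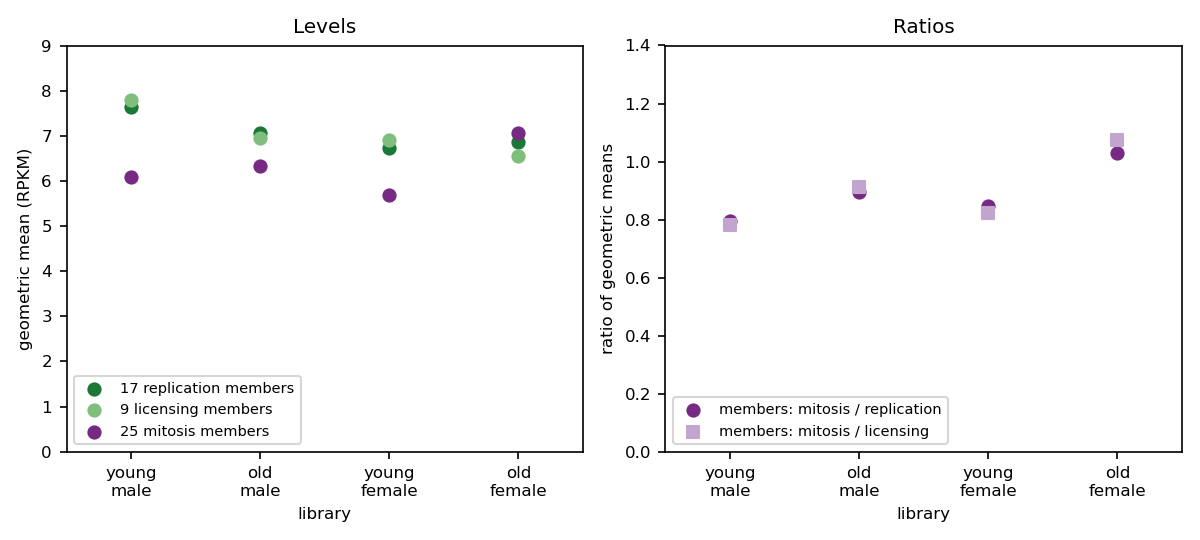
The left panel gives the geometric mean RPKM of 3 groups of genes in each library, and the right panel the ratio of the mitosis genes to all replication genes (circles) and to the licensing genes (squares). The ratio is lowest in young males (0.797 and 0.782) and highest in old females (1.03 and 1.08).

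In the young libraries 32 of 41 genes were higher in the male, with a median log2 ratio of male to female of 0.12, where 52.5% of all genes were higher. Of the 41, 0 were 2-fold apart, where 0.976% of all genes were 2-fold higher in the male and 0.364% lower. In the old libraries 19 of 41 were higher in the male, against 39.4% of all genes, with a median of -0.03 that was 0.04 under median scaling and 0.05 after quantile normalization. Again 0 were past 2-fold, where 1.98% of all genes were higher and 1.78% lower. The medians over all genes were 0.01 and -0.07. At 1.25-fold, Cdt1, Rrm2 and Kif11 were higher in young males (11.4% of all genes, and 0 lower, with 9.61%), and Mki67, Bub1b, Kif20a and Cenpf were lower in old males than in old females (20.5% of all genes). The young female library held the lowest of the 4 values for 23 of 42 genes and the old female the highest for 21. The shares of all genes were not counted, so these counts are not read as a property of the genes. Over the set, the age comparison in females set the library most often lowest against that most often highest. Among the 25 mitosis genes the counts were 17 and 17. Of the 17 replication genes, the old female library was itself the lowest for 10 and the highest for 4. Against the young male library in place of the young female, the old female library had median ratios of 0.17 over the mitosis and -0.11 over the replication genes. Here 3 genes were at least 1.25-fold higher (the highest Plk1, 0.47) and 1 lower, where 13.9% and 9.18% of all genes were.

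The wider cell cycle was measured in 4 further lists of genes outside the set. Of 46 analysed mitosis genes, 37 were higher in old females and 30 in old males, with medians of 0.24 and 0.04, where 59.1% and 47.0% of all genes were higher. Here 0 were 2-fold higher in either sex, and 1 was 2-fold lower, in females. This was Melk, a kinase of dividing and progenitor cells, with 9.50 RPKM in young males, 15.4 in young females, 13.9 in old males and 6.72 in old females. Its order of libraries was the reverse of that of Mki67, and its log2 age ratios were -1.09 in females and 0.50 in males. The authors' deposited table gives it a fold of -2.30 in females. Of 32 analysed replication genes, 25 were higher in old females and 20 in old males, with medians of 0.12 and 0.03. Of these 32, 0 were 2-fold apart in either sex. After quantile normalization the 25 became 13 and the 37 mitosis genes higher in old females became 32, where 48.7% of all genes were higher. A list of 12 G1 cyclins, kinases and Myc factors, which also holds Cdc25a, Cdc25b, Ccng1 and Ccng2, had medians of -0.02 and -0.01, with 0 past 2-fold. The genes were spread about these medians. In females 3 were at least 1.25-fold higher and 4 lower, where 25.7% and 16.7% of all genes were. Cyclin D1 (Ccnd1), which starts the cycle in response to growth signals, had 60.5, 74.6, 76.8 and 47.5 RPKM in young males, young females, old males and old females. Mycn had 2.12, 1.53, 2.56 and 3.38 RPKM, and the authors' deposited table gives it a fold of 2.21 in females, on RPKM without a pseudocount. Both are named after their values were seen. The 17 genes of the RB family and the DREAM complex, a list that also holds activators such as E2f3 and Mybl2, had medians of 0.03 and 0.01, with 0 past 2-fold.

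Summed tissue markers differed more between the libraries than the summed proliferation genes did. All 10 markers of the basal epidermis were listed, and their summed RPKM was 10709 in young males, 14383 in young females, 12324 in old males and 5755 in old females. The keratins Krt5, Krt14 and Krt15 made up most of it, with 4112, 2248 and 7744 RPKM in young females. In old females 9 of the 10 were lower, from log2 -1.73 (Krt15) to -0.37 (Itga3), where 40.9% of all genes were. Trp63 was higher (0.10). The 10 meibocyte markers summed to 9772, 4263, 7233 and 13922, and the 10 muscle markers to 366.1, 329.7, 922.9 and 1549. The 8 conjunctival markers summed to 4882, 7534, 6867 and 2200. However, only 4 of the 8 were lower in old than in young females, and the goblet cell mucin Muc5ac was higher there (200.1 RPKM young, 456.7 old). The 10 suprabasal markers summed to 1793, 1950, 1254 and 295.4. In old females 9 of these 10 were lower, from log2 -6.20 (Krt77) to -0.12 (Dsc1), where 40.9% of all genes were, and Ivl differed by 0.02. The 12 hair follicle genes, plotted as hair matrix and shaft and all listed, summed to 2974, 2338, 2784 and 2490, with the young female library lowest and the young male highest. Krt25, Krt27 and Krt71 made up most of it, with 771.5, 580.0 and 1049 RPKM in young males. The sum is therefore not a measure of the dividing hair matrix. The young female library was also the lowest for the meibocyte, muscle, B cell, erythroid, fibroblast and endothelial sums. Of the immune and blood lists, the T cell markers summed to 14.2, 29.4, 13.0 and 12.7 RPKM with Trac listed nowhere. The B cell markers summed to 2.34, 2.05, 4.08 and 9.38, with Cd79a and Ms4a1 listed nowhere, and the erythroid ones to 4.56 to 6.98. The fibroblast markers summed to 35.0, 30.6, 83.1 and 236.0, the endothelial to 1.34, 1.001, 3.00 and 9.66, and the macrophage to 94.1, 79.3, 78.4 and 104.7. The part of these tissue shares in the differences of the proliferation genes was not tested. Total base coverage was 3.16 gigabases in old females and 3.78 to 3.91 in the others, and read depth is unknown.

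**Figure D5:**
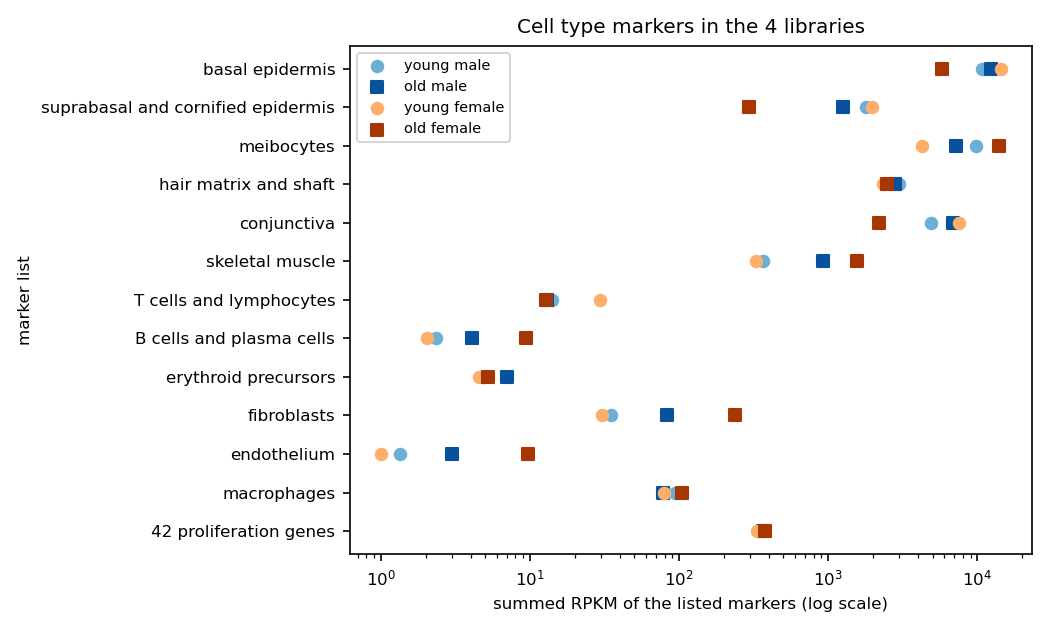
Each row is a list of cell type markers, with the summed RPKM of its listed genes in each library on a log scale, and the last row is the sum over the 42 proliferation genes. The proliferation genes span 334.2 to 376.5 RPKM, while the meibocyte markers span 4263 to 13922 and the suprabasal markers 295.4 to 1950.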

How the data were processed

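RNA was measured in 4 lower eyelid libraries, 1 per age and sex. Per the labels' protocols, lids were frozen and extracted on Qiagen columns, and libraries were made by Illumina protocols. TopHat, Cufflinks and the build mm10 appear in the submitters' processing notes. How reads were counted, and whether by strand, is not given in those notes.

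The authors deposited RPKM per gene, listed from 0.125 RPKM up. A second column, a raw count per the file headers, was read as summed base coverage: as deposited by the authors, coverage totals 3.16 to 3.91 gigabases a library. The authors' deposited comparison tables hold RPKM, a signed fold score (deposited by the authors), p-values and Bonferroni values. The p-values deposited by the authors were not used.

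Symbols on more than 1 row (2) were left out. A gene missing from a table counted as 0. Genes with a mean of at least 1 RPKM were compared as log2(RPKM + 1), a scale that understates differences of low genes. Genes 2-fold apart were counted. Values were given for the highest gene of each of 8 roles, for genes 2-fold apart, and for Mki67, Top2a, Pcna, Mcm2, Cdk1 and Ccnb1; other named genes were chosen after their values were seen. The members and lists were chosen with earlier results of these data known. All 42 symbols were on the same chromosome in GENCODE vM21, which uses the same build. Python 3.11.15 and pandas 2.3.3 were used, and the ratio and count steps were tested on simulated data.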

Additional observations from a re-analysis of the deposited data

Results flagged for a closer look

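Age ratios of opposite sign in the sexes, at least 1.25-fold in 1 of them, were found for 8 of 41 analysed genes (19.5%) and for 30.8% of all analysed genes (log2 ratios of old to young, females then males). In none was the difference between the sexes tested, since each sex has 1 library per age. The values were 0.68 and -0.07 for Mki67, 0.35 and -0.04 for Top2a, 0.41 and -0.16 for Rrm2, and 0.41 and -0.10 for Tyms. They were 0.51 and -0.14 for Bub1b, 0.52 and -0.01 for Kif11, 0.37 and -0.07 for Kif20a, and 0.37 and -0.05 for Tpx2. Under median scaling or quantile normalization 4 of 41 met both conditions, where 29.6% of all genes did under either. Kif11 then had 0.00 and 0.02 in males. Outside the set, Melk went the other way, with -1.09 in females and 0.50 in males, and this difference was not tested either.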

How the results depend on the processing

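With 1 library per group, leaving out a library leaves no comparison. The old female library had the lowest coverage, 3.16 gigabases, and listed the most genes, 15297. How coverage affected the lowest genes was not tested. No paired analysis was possible because no group has a second library. The counts of 0 genes at 2-fold stayed at 0 under a pseudocount of 0.1 or 5, no filter, a mean of at least 5 RPKM, median scaling, quantile normalization and missing genes at the lowest RPKM listed. The other alternatives at 1.25-fold were chosen after seeing the data. The median female age ratio over the set was 0.048 and over mitosis genes 0.11 after quantile normalization (0.16 and 0.23 as reported). The 11 genes 1.25-fold higher in the old female library became 2 with a pseudocount of 5, 6 under median scaling and 5 under quantile normalization, and the 0 lower became 1 with a pseudocount of 0.1 and 1 under quantile normalization. In males the 0 higher became 1 with a pseudocount of 0.1, and the 1 lower became 0 with a pseudocount of 5 and 0 when genes needed a mean of 5 RPKM. Between young sexes the 3 higher in the male became 7 and 0 with pseudocounts of 0.1 and 5 and 1 under quantile normalization. Between old sexes the 0 higher became 1 with a pseudocount of 0.1, under median scaling and under quantile normalization, and the 4 lower became 1 with a pseudocount of 5 and 2 under either scaling. The cause was not tested. The mean age ratio of mitosis less that of replication genes stayed between 0.13 and 0.27 in females and between 0.10 and 0.16 in males.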
